A study of Mus musculus with 3 samples.

Results

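Connective tissue fibroblasts share a small set of genes across organs, and 9 of these genes were examined for chromatin accessibility in Hic1-lineage mesenchymal progenitors (MPs) of the developing mouse forelimb: Dpt, Clec3b, Ly6a, Cd34, Mfap5, Pi16, Postn, Fap and Pdpn. A locus was the gene body plus 10 kb either side in mm10, and its members were the deposited peaks that overlapped it. By this rule 60 of 190443 peaks of the E12.5 library, 45 of 102459 of the E14.5 library and 80 of 213613 of the E16.5 library belonged to the 9 loci, and merging the 3 peak lists gave 87 common intervals at these loci out of 266531 in all. Levels of a locus were summed over its common intervals, which at 1 interval, Pi16-9, brought in the E12.5 peak and the E14.5 peak although only the E16.5 peak reaches the window. The 9 genes were taken from 20807 autosomal protein-coding genes of the annotation. The genes are named below with an interval number that runs along the chromosome, so that Dpt-4 is the fourth interval of the Dpt locus counted by rising coordinate.

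The samples were 3 single-cell ATAC-seq libraries, 1 per embryonic day, in which each nucleus carries a barcode and each read end marks a transposase cut in open chromatin. All libraries came from Hic1CreERT2/CreERT2;Rosa26LSLtdTomato/tdTomato mice on C57BL/6J, in which tamoxifen (7.5 mg by gavage at embryonic day 10) switches on tdTomato in cells that express Hic1 at that time and in their descendants. Forelimbs were pooled from several embryos at each day, and tdTomato+ cells were sorted after exclusion of cells carrying CD45, CD117, CD31, CD11b, F4/80 or Ter119. The groups were not alike in tissue or dissociation: E12.5 and E14.5 were whole forelimb, E16.5 was the segment holding the distal stylopod, the proximal zeugopod and the elbow joint, and E12.5 cells were released with Dispase but later cells with Collagenase A, Pronase and DNase. With 1 library per day there was no replicate error, no test was made, and stage cannot be told apart from tissue segment, dissociation, library, depth or, at E16.5, the software version that called the peaks (1.2.0, against 1.0.1 for the earlier libraries). Every interval given below is a 95% interval that covers counting error only.

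Depth differed between the libraries. Where 3 values follow each other they are given from the earliest to the latest day. The deposited matrices held 8294, 20023 and 14048 nuclei, with 87048167, 204289151 and 413425059 cut sites in peaks and a median of 6003.5, 8575 and 26694 per nucleus. The libraries shared 213 barcodes between E12.5 and E14.5, 151 between E12.5 and E16.5 and 401 between E14.5 and E16.5, which was at most 2.85% of the smaller library. Levels are given as CPM, the cut sites of a locus per 1000000 cut sites in the 82930 autosomal intervals called in all 3 libraries. The locus of Ptprc, which encodes the CD45 that the sort excluded, was open in 3.19%, 1.80% and 1.12% of nuclei at equal depth (defined below), and that of Pecam1, encoding CD31, in 5.44%, 3.30% and 8.51%. A count in the window of a gene does not by itself mark a cell that uses the gene.

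Fibroblasts build and maintain the collagen-rich matrix that surrounds muscle, tendon, cartilage and skin. In adult tissues, Dpt marks nearly all fibroblasts, Pi16 together with Ly6a and Cd34 marks a progenitor-like set found around vessels, and Postn and Fap are known for activated fibroblasts of healing or growing tissue. Open chromatin at promoters and at distal elements is where transcription factors bind, and an element often opens before or along with transcription of its gene.

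The 9 genes fall into matrix proteins (Dpt, dermatopontin; Clec3b, tetranectin, which binds plasminogen; Mfap5, a microfibril protein; Postn, periostin), cell surface proteins (Ly6a, the Sca-1 antigen; Cd34, a sialomucin; Pdpn, podoplanin), and enzymes or inhibitors (Fap, a surface protease; Pi16, peptidase inhibitor 16). In mm10 Dpt lies at chr1:164796644-164824266, Clec3b at chr9:123150946-123157432, Mfap5 at chr6:122505845-122529290 and Postn at chr3:54361109-54391037. Ly6a lies at chr15:74994877-74998031, Cd34 at chr1:194938819-194961279, Pdpn at chr4:143267431-143299564, Fap at chr2:62500943-62574075 and Pi16 at chr17:29317680-29330593. Ly6a has close relatives of like sequence beside it, so reads of this family may be placed with less certainty.

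The leading interval of a locus was the one with the largest difference in CPM between E16.5 and E12.5 in the direction of the whole locus. The sequences below are the middle 300 bases of the leading intervals of Dpt, Cd34, Pdpn and Fap, whose middle lies outside exons, with Clec3b-1 added because the middle of the leading Clec3b interval falls on an exon. They were read from the GRCm38 plus strand, and capitals mark matches to any of 8 letter patterns on either strand.
Dpt-4: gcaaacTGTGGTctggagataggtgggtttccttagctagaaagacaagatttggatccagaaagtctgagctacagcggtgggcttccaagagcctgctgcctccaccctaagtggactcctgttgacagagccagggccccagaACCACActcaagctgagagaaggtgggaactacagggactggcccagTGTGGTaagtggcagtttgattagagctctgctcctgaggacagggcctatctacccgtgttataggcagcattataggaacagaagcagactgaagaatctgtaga
Clec3b-1: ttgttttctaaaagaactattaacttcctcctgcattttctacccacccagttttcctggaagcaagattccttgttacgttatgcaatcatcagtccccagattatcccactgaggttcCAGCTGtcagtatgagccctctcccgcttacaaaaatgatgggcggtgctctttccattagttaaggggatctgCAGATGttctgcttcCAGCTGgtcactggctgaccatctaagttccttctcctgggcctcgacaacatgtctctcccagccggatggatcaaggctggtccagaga
Cd34-1: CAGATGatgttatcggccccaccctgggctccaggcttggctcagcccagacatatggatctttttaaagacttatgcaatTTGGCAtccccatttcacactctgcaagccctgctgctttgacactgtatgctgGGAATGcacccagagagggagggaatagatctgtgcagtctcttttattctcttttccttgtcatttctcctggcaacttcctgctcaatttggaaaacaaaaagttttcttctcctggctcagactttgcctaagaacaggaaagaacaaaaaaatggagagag
Pdpn-2: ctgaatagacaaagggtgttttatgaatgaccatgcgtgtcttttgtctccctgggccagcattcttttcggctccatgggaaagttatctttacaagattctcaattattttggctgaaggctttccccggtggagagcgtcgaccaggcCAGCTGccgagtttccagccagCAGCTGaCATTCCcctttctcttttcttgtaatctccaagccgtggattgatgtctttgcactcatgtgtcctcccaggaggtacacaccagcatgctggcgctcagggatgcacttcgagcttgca
Fap-9: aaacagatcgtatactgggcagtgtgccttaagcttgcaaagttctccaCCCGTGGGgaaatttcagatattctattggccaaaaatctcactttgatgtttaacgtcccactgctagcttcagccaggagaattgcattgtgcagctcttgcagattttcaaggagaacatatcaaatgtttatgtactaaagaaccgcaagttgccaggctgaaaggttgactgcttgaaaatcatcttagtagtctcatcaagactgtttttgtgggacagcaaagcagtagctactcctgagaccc

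The Dpt-4 window (chr1:164798152-164798451), the Fap-9 window (chr2:62549294-62549593) and the Pdpn-2 window (chr4:143279746-143280045) lie in introns of the genes they are named for. Dpt-4 is a merged interval of 4946 bp, and its stronger E12.5 and E14.5 peaks (5.28 and 8.18 CPM) lie outside the window shown. The Cd34-1 window (chr1:194930087-194930386) and the Clec3b-1 window (chr9:123148455-123148754) lie between genes. The patterns searched were AP-1 (TGANTCA), TEAD (GGAATG), RUNX (TGTGGT), an NFI site (TTGGCA, one arm of the full palindrome), EBF (CCCNNGGG), a TWIST-type E-box (CAGATG), a TCF21-type E-box (CAGCTG) and SOX (AACAATG). In the middle 300 bases of 7 leading intervals, those of all loci but Postn and Ly6a, TEAD, RUNX and the TCF21-type E-box were found in 3 each and NFI in 2. Over the middle 300 bases of all 260778 autosomal intervals these patterns were found in 21.8% (TEAD), 22.1% (RUNX), 21.3% (TCF21-type E-box) and 20.1% (NFI). EBF and the TWIST-type E-box were each found in 2 of the 7, against 9.45% and 29.9% of all intervals, SOX in 1, against 4.98%, and AP-1 in 0, against 18.2%. These are matches of letters in a window of fixed size, and no binding was measured.

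The first comparison asked which loci were more open at the later days. Dpt and Clec3b stood apart: their summed CPM at E16.5 was 6.56 and 5.62 times that at E12.5. Cd34 was 3.20-fold and Postn 2.20-fold higher. Thus 4 of 9 loci were at least 2-fold higher at E16.5 than at E12.5, where 4.07% of 17811 genes with a value were, and none was 2-fold lower, against 3.26% of genes. The median log2 ratio was 0.76 over the 9 loci and 0.05 over all genes. Because the 9 loci were chosen with earlier results of these data known, the contrast with all genes is a description only. Between E12.5 and E14.5 no locus was 2-fold higher, against 0.449% of genes. From E14.5 to E16.5 6 of 9 were at least 2-fold higher (Dpt, Clec3b, Ly6a, Cd34, Pi16 and Postn), against 6.48% of genes. That count was 3 over intervals called in all 3 libraries (2.19% of genes) and 2 scaled to all counts in autosomal peaks (4.45%). It was 1 with missing intervals filled (0.526%), 1 over peaks of matched position (0.392%) and 0 per kb of called width (0.0175%). These ways of summing are described below.

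**Figure D1:**
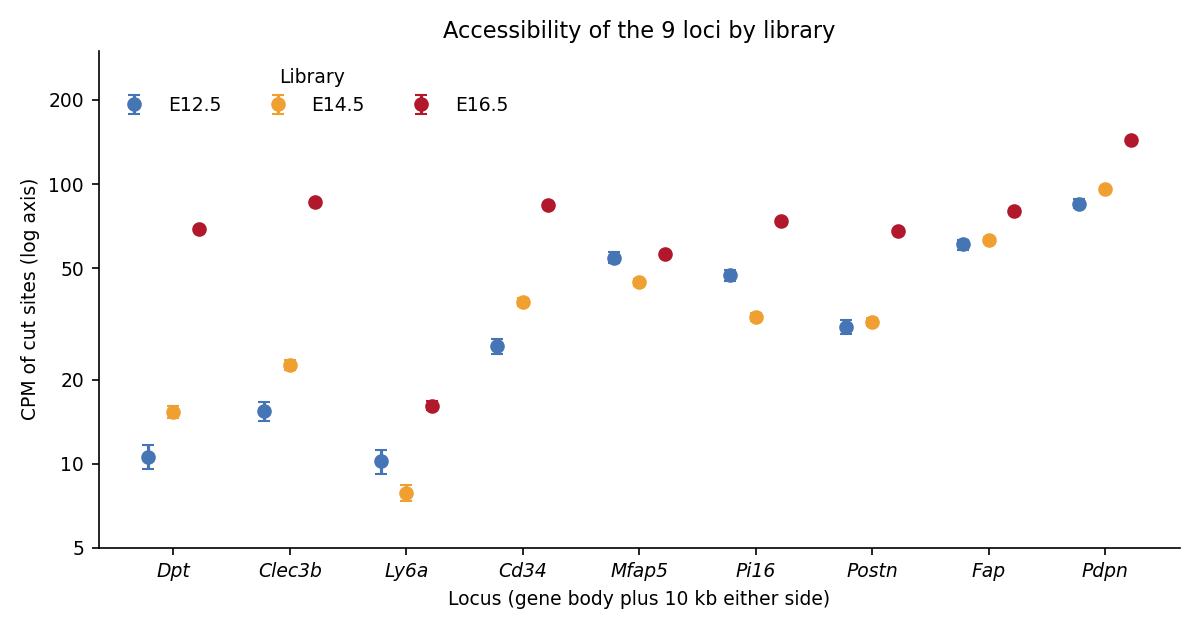
CPM of cut sites (log axis) summed over the called intervals of each locus, with 1 point per library and bars for the 95% counting interval. Dpt, Clec3b, Cd34 and Postn sit at least 2-fold higher at E16.5 than at E12.5, and the Mfap5 points lie between 44.6 and 56.3.

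Among the matrix genes, Dpt measured 10.6, 15.3 and 69.2 CPM. The counting interval of its log2 ratio of E16.5 over E12.5 ran from 2.57 to 2.86. Clec3b measured 15.4, 22.5 and 86.4 CPM, with a log2 ratio of 2.49 (2.37 to 2.61). In both loci the E14.5 value was nearer to E12.5 than to E16.5 on this scale, though not per kb of called width (below), with E14.5 over E12.5 at 1.45-fold for Dpt and 1.46-fold for Clec3b. Postn measured 30.8, 32.1 and 67.8 CPM, so that its first 2 libraries differed by 1.04-fold. Mfap5 measured 54.6, 44.6 and 56.3 CPM, and its log2 ratio of E16.5 over E12.5 was 0.04 (-0.03 to 0.11).

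Among the surface proteins, Cd34 measured 26.3, 37.9 and 84.1 CPM with a log2 ratio of 1.68 (1.58 to 1.77). Pdpn, which is also made by lymphatic endothelium and bone cells, had the highest level of the 9 in each library, at 85.2, 95.7 and 144.0 CPM. Ly6a had the lowest in each, at 10.2, 7.85 and 16.1 CPM, next to Dpt at 10.6 at E12.5. The Fap locus measured 60.8, 63.3 and 80.0 CPM and that of Pi16 47.1, 33.6 and 73.8. Over only the peaks that overlap the window themselves, an alternative chosen after the values were seen, Pi16 measured 27.9, 22.7 and 73.8 CPM and was 2.64-fold higher at E16.5 than at E12.5, so that 5 of 9 loci were at least 2-fold higher, against 4.52% of genes. This alternative keeps the whole E16.5 peak of Pi16-9 (25.3 CPM) but drops the E12.5 and E14.5 peaks of that interval (19.2 and 10.8 CPM). The call of Pi16 thus rests on an unlike cut at the edge of the window. The other 8 loci had the same values either way. Pi16, Ly6a and Mfap5 were lower at E14.5 than at E12.5, at 0.71-fold, 0.77-fold and 0.82-fold. Per kb of called width these directions turned, to log2 ratios of 0.34, 0.15 and 0.36, but all lay below the median over all genes of 0.65. That of Ly6a turned also with missing intervals filled (0.22, all genes 0.26). Those of Ly6a and Mfap5 turned with 50 kb either side (0.12 and 0.05, all genes 0.006). For promoter peaks only Mfap5 was at 0.39 (all genes 0.26). All 9 loci were higher at E16.5 than at E14.5 in summed CPM, from 1.26-fold for Mfap5 and Fap to 4.53-fold for Dpt. With missing intervals filled or over peaks of matched position 7 of 9 were, and per kb of called width 2 of 9. Over all genes the median log2 ratios were -0.26, -0.23 and -0.91 in the same order. The direction at Mfap5 between E12.5 and E16.5 was not stable: its log2 ratio was -0.01 and -0.04 under 2 other scalings, -0.12 over intervals called in all 3 libraries, -0.05 both with missing intervals filled and without the deepest 5% of nuclei, -0.22 with 50 kb either side, -0.28 per kb and -0.46 over peaks of matched position, but 1.22 for the gene body plus 2 kb upstream and 2.27 for promoter peaks only.

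These sums move with how much of a locus was called as peaks, and called width grew along with the sums. At Dpt 2680, 2603 and 10293 bp were called at the 3 days, and at Clec3b 3908, 3447 and 11353 bp. The median locus of the 9 had 2.13 times as much called width at E16.5 as at E12.5, where the median of all genes was 1.23 times, and each of the 9 was above that median. Over all genes the median called width at E14.5 was 0.643 times that at E12.5, and at E16.5 1.98 times that at E14.5. Per kb of called width, Dpt measured 3.94, 5.87 and 6.72 CPM and Clec3b 3.93, 6.53 and 7.61 CPM, which puts E14.5 nearer to E16.5 than to E12.5 at both. Over all genes the median log2 ratio per kb was 0.65 in the step up to E14.5 and -0.91 in the step after it. Dpt was at 0.58 and 0.20 in these steps, and Clec3b at 0.73 and 0.22. The E14.5 library thus stood high per kb over genes in general, and its place at these loci cannot be read as timing. On this scale no locus was 2-fold higher at E16.5, against 0.247% of genes, and the median log2 ratio was 0.034 over the 9 loci and -0.25 over all genes. Clec3b (0.95), Dpt (0.77), Cd34 (0.25), Pdpn (0.12) and Postn (0.03) had log2 ratios per kb above 0, and Pi16 (-0.19), Mfap5 (-0.28), Ly6a (-0.43) and Fap (-0.65) were below it.

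Over the intervals called in all 3 libraries the log2 ratios were 2.12 for Dpt, 1.92 for Clec3b, 1.59 for Cd34 and 1.10 for Postn, so the same 4 loci were at least 2-fold higher, against 2.0% of genes. With intervals missing from a list given the 10th percentile level of that library's peaks, the ratios were 1.80 for Clec3b, 1.64 for Dpt, 1.50 for Cd34 and 0.98 for Postn. Over peaks that overlapped by at least 50% in both directions between E12.5 and E16.5, 1 locus was at least 2-fold higher, Clec3b at 1.19, against 1.11% of genes, and Cd34 was at 0.97 and Postn at 0.86. Fap turned in direction over these peaks, to -0.28, and was at -0.05 for promoter peaks only. Dpt had no pair of peaks matched in this way. The direction at Dpt, Clec3b, Cd34, Postn and Pdpn was thus upward under each of these ways of summing that gave a value, and the size depended on how width was treated. The parts of depth and of the software version in the wider calls at E16.5 cannot be told apart.

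**Figure D2:**
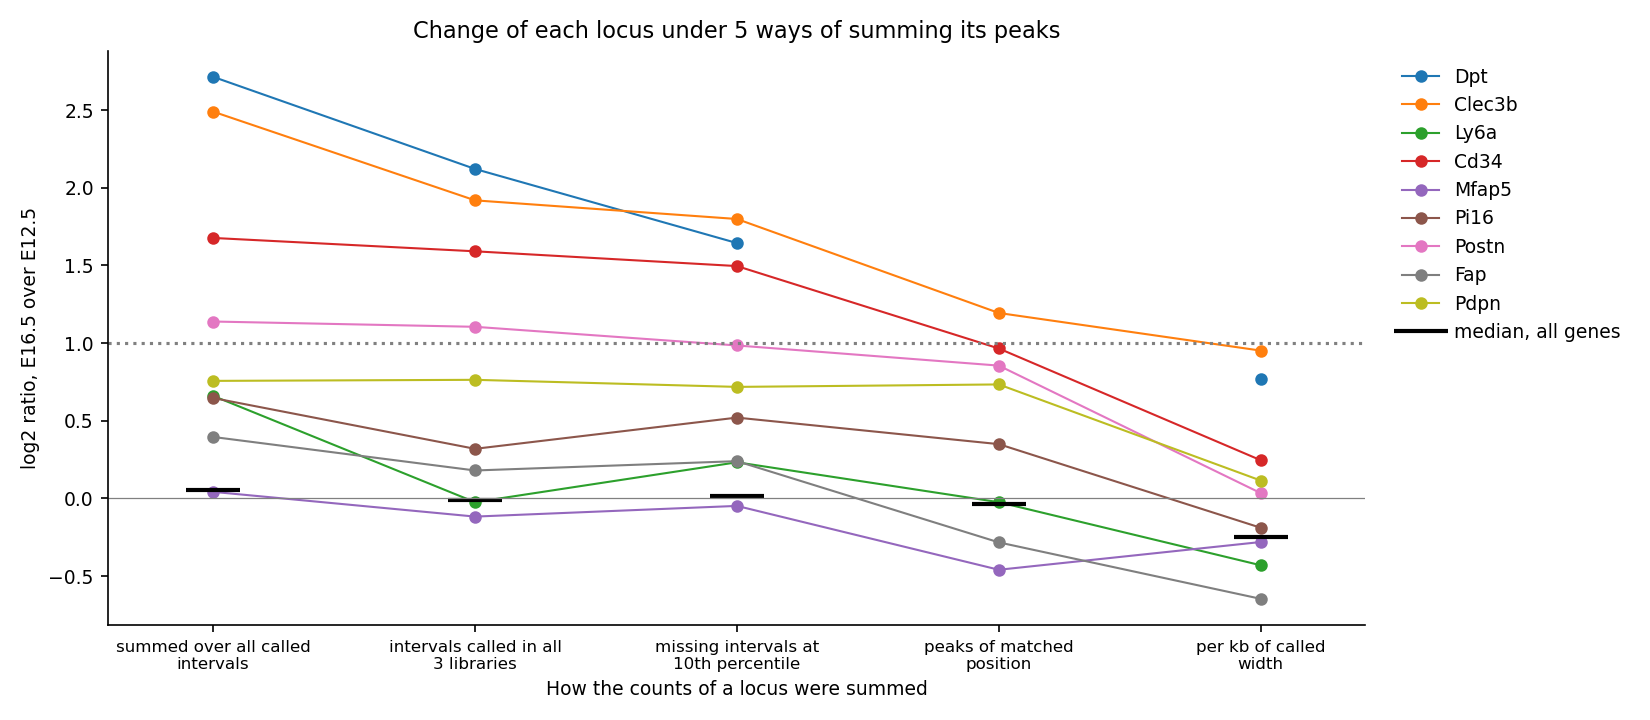
Log2 ratio of E16.5 over E12.5 for each locus (coloured points) under 5 ways of summing its peaks, with a black bar at the median of all genes and a dotted line at 2-fold. Clec3b, Cd34, Postn and Pdpn stay above the bar in every column, Dpt has no point for peaks of matched position, and Fap, Mfap5 and Ly6a lie on or below the bar in the last column.

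The second comparison asked which single intervals carried these differences. Of the 87 common intervals 36 were called in all 3 libraries, 7 only at E12.5, none only at E14.5 and 29 only at E16.5. These are 41.4%, 8.05%, 0% and 33.3% of the 87, against 31.8%, 19.5%, 0.254% and 27.5% of all common intervals. Of the 80 intervals called at E16.5 33 (41.3%) had no E12.5 peak, against 38.3% of all E16.5 intervals, so calls missing at E12.5 were about as frequent among the E16.5 intervals of these loci as in the whole list. An interval without a peak is below the calling threshold of that library and not at 0: 10% of called peaks measured under 0.473, 1.10 and 0.551 CPM in the 3 libraries.

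At Dpt 3 intervals held most of the difference. Dpt-4, which covers the promoter and a coding exon and reaches into an intron, measured 7.48, 9.68 and 32.6 CPM and made up 42.7% of the difference between E16.5 and E12.5, with called widths of 1972, 1418 and 4867 bp. Dpt-8, in an intron 17375 bp from the start site and inside the predicted gene Gm32569, was not called at E12.5 and measured 5.60 and then 18.6 CPM, or 31.7% of the difference. Dpt-3, 3130 bp upstream, was called only at E16.5, at 8.35 CPM and 14.2%.

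Clec3b gained at 3 intervals of like size. The promoter interval Clec3b-2 had no E12.5 peak and measured 3.97 and then 21.0 CPM, or 29.5% of the difference. Clec3b-1, 2341 bp upstream of the start site, measured 1.03, 4.85 and 21.3 CPM (28.5%), with 401, 604 and 1457 bp called. Clec3b-5, a merged interval that runs from the end of the gene to past it, measured 9.52, 7.92 and 25.8 CPM (23.0%). At Clec3b-1 and Clec3b-2 the E14.5 value lay above E12.5 or above its absence from the list, and at Clec3b-5 it lay below.

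At Cd34 a distal interval led. Cd34-1, 8582 bp upstream of the start site and between genes, measured 2.43, 9.06 and 32.6 CPM, a log2 ratio of 3.74 of E16.5 over E12.5, and made up 52.2% of the difference, with called widths of 553, 1070 and 2535 bp. The promoter interval Cd34-2 measured 13.7, 16.8 and 21.2 CPM (13.0%), and the intronic Cd34-4 4.39, 7.55 and 15.7 CPM (19.6%). Cd34-1 thus went from the lowest of these 3 at E12.5 to the highest at E16.5. At Postn a merged interval led: Postn-3, which reaches from upstream of the start site into the gene, measured 20.3, 22.9 and 43.1 CPM, or 61.7% of the difference. At E12.5 and E14.5 it held 2 peaks, an upstream peak (13.5 and 10.3 CPM) and a peak at the start site (6.71 and 12.6 CPM). The E16.5 peak joined them, so the difference cannot be given to the promoter alone. The called width of Postn-3 was 3094, 3040 and 5681 bp.

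Pdpn and Fap were led from introns. Pdpn-2, 19567 bp downstream of the start site, measured 34.5, 43.2 and 64.7 CPM (51.3%). The merged interval Pdpn-6, which spans the promoter, measured 29.6, 38.4 and 43.5 CPM (23.7%). Its peak at the start site measured 22.0 CPM at E12.5 and 28.3 at E14.5. At E16.5 a peak of 6448 bp joined it to further peaks in the gene, so these values are not those of the promoter alone. At Fap the promoter interval did not carry the difference: Fap-14 measured 38.1, 40.1 and 36.8 CPM. The intronic Fap-9, 24407 bp from the start site, measured 7.45 and then 14.97 CPM at the later days, or 77.9% of the net difference (121% with missing intervals filled), and its E12.5 call was 42 bp wide with almost no cut sites. Fap-1, near the end of the gene, went the other way and measured 15.5, 12.8 and 6.59 CPM.

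The small net difference at Mfap5 was the sum of opposite ones. Mfap5-1, 17297 bp upstream and overlapping the neighbouring gene Rimklb, measured 32.9, 29.2 and 16.6 CPM, a log2 ratio of -0.98. Distances run from the nearest annotated start site, which at Mfap5 lies inside the gene span given above, so that Mfap5-4 falls within that span. Nearer to this start site, the promoter interval Mfap5-6 measured 2.23, 2.92 and 10.8 CPM, a log2 ratio of 2.27, and Mfap5-4, 4841 bp upstream of it, measured 2.96, 4.83 and 10.96 CPM. Mfap5-3, 8473 bp upstream of the same start site but ending at the first base of the gene span, was called only at E16.5, at 5.19 CPM. The Mfap5 locus as a whole therefore did not show what its promoter showed.

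At Pi16 the largest differences in called CPM lay at the far end of the window, in the neighbouring gene Mtch1. Pi16-8 (28.4% of the difference) was not called at E12.5 and measured 1.93 and 7.57 CPM, and Pi16-9 (23.0%) measured 19.2, 10.8 and 25.3 CPM, of which the first pair of values comes from peaks just past the window. The share of Pi16-8 takes its uncalled E12.5 interval as 0. With missing intervals filled it was 14.6%, behind Pi16-9 (27.4%), Pi16-1 (24.1%) and Pi16-2 (18.7%). Upstream, Pi16-1 measured 1.93, 3.22 and 7.31 CPM (20.2%) and Pi16-2 went from 0.77 CPM at the first day to 4.95 at the last, both overlapping BC004004. At Ly6a the E16.5 calls of an interval in the gene body (Ly6a-3, 3.32 CPM) and one at the promoter (Ly6a-4, 3.12 CPM) made up 56.1% and 52.8% of the net difference. Neither was called at the earlier days, and the intervals of Ly6a called in all 3 libraries had a log2 ratio of -0.02.

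**Figure D3:**
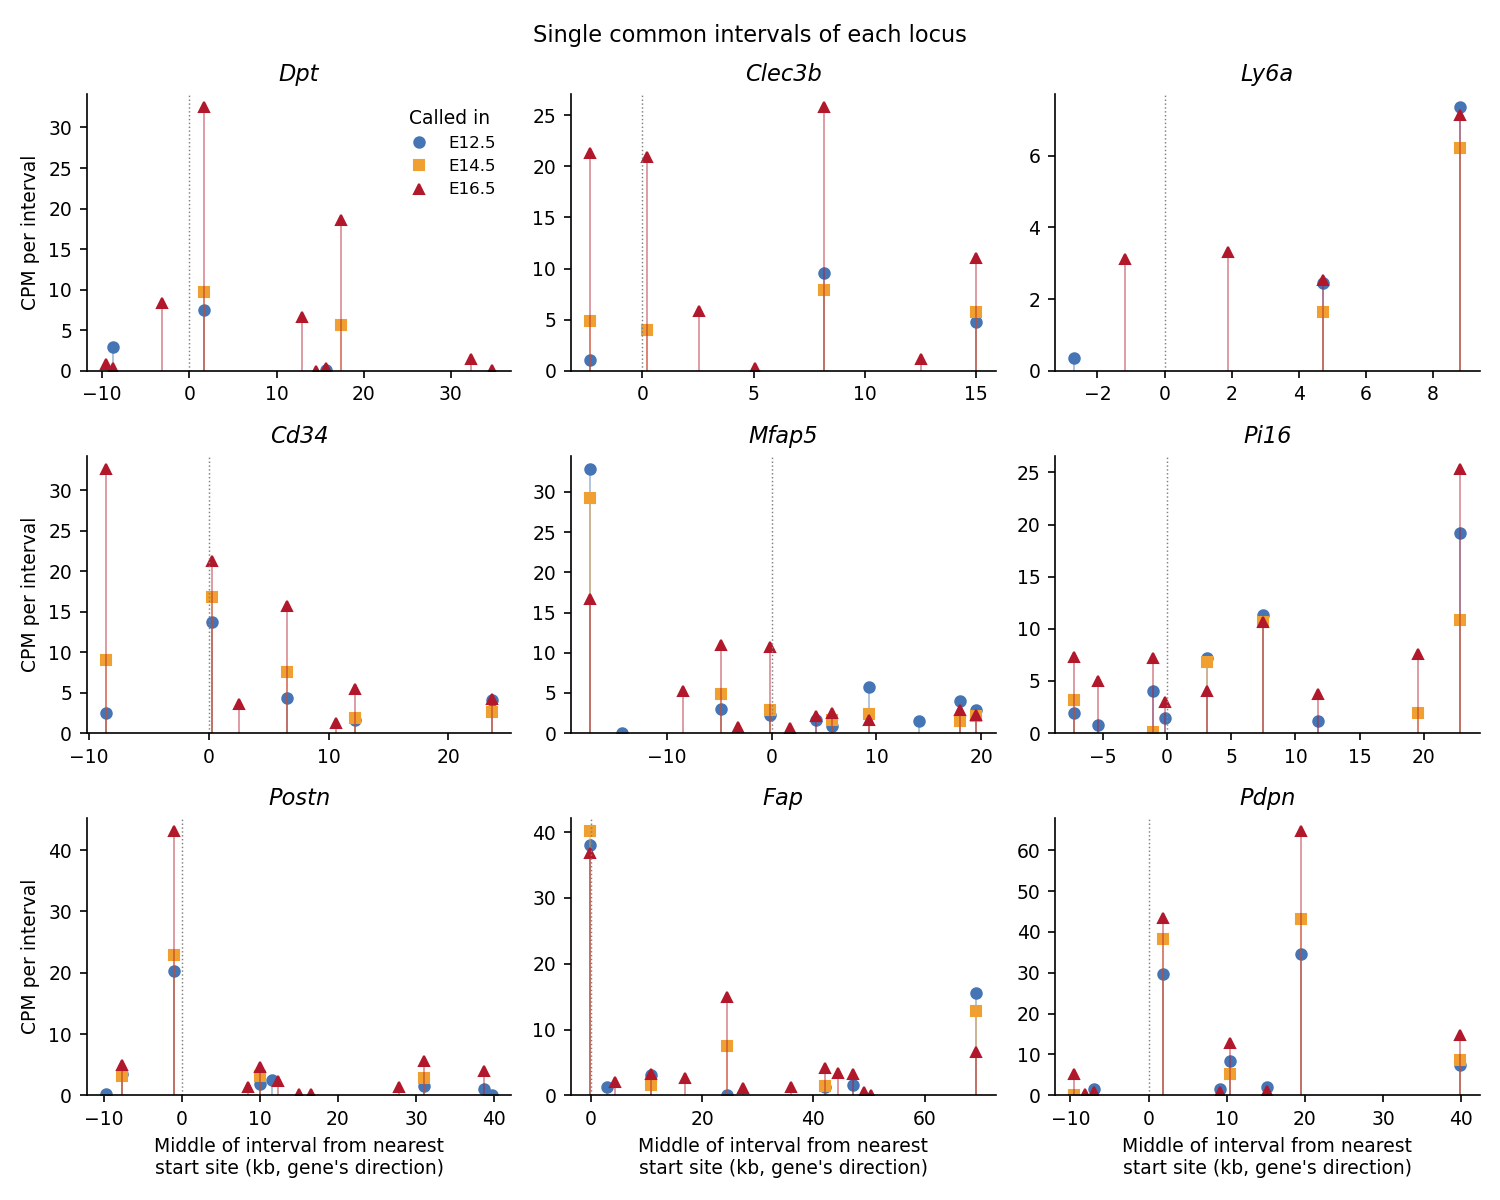
CPM of each common interval against the distance of its middle from the nearest start site (kb, in the direction of the gene), with 1 symbol per library in which the interval was called. Cd34 and Pdpn differed most away from the start site and Postn at a merged interval that spans it, and Fap and Mfap5 hold intervals that were higher at E16.5 beside intervals that were lower.

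Because deeper nuclei show more open loci, shares of nuclei were compared after thinning. A nucleus was drawn down to 1000 fragment equivalents (a fragment gives up to 2 cut sites) in the autosomal intervals called in all 3 libraries, and a locus was open where at least 1 was left in it. This left out 1930 nuclei of the first library, none of the second and 199 of the last. At this depth Dpt was open in 1.13% (0.886 to 1.42), 1.66% (1.49 to 1.85) and 6.52% (6.11 to 6.94) of nuclei. Clec3b was open in 1.48%, 2.33% and 8.06%, Cd34 in 2.66%, 4.03% and 7.63%, and Postn in 2.84%, 2.98% and 6.71%. The shares at E16.5 were above those at E12.5 with no overlap of counting intervals for 8 of 9 loci, where 36.8% of 17816 genes were. Mfap5 was the exception, at 5.67%, 4.57% and 5.22%.

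The other loci follow, with smaller folds. Pdpn was open in 8.25%, 8.96% and 13.3% of nuclei, Fap in 6.05%, 6.41% and 7.61%, Pi16 in 4.98%, 3.50% and 7.08%, and Ly6a in 1.05%, 0.854% and 1.68%, the Pi16 shares of the earlier days again with the Pi16-9 peaks past the window. Without thinning the shares at E16.5 ran from 16.1% for Ly6a to 67.8% for Pdpn, and at E12.5 from 4.06% for Dpt to 24.4% for Pdpn. Thinned shares still rest on the called width of each library. Over the intervals called in all 3 libraries, 5 of 9 loci were above E12.5 without overlap, against 29.0% of genes. At E16.5 the share of Ly6a was 1.68% and that of Ptprc 1.12%.

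**Figure D4:**
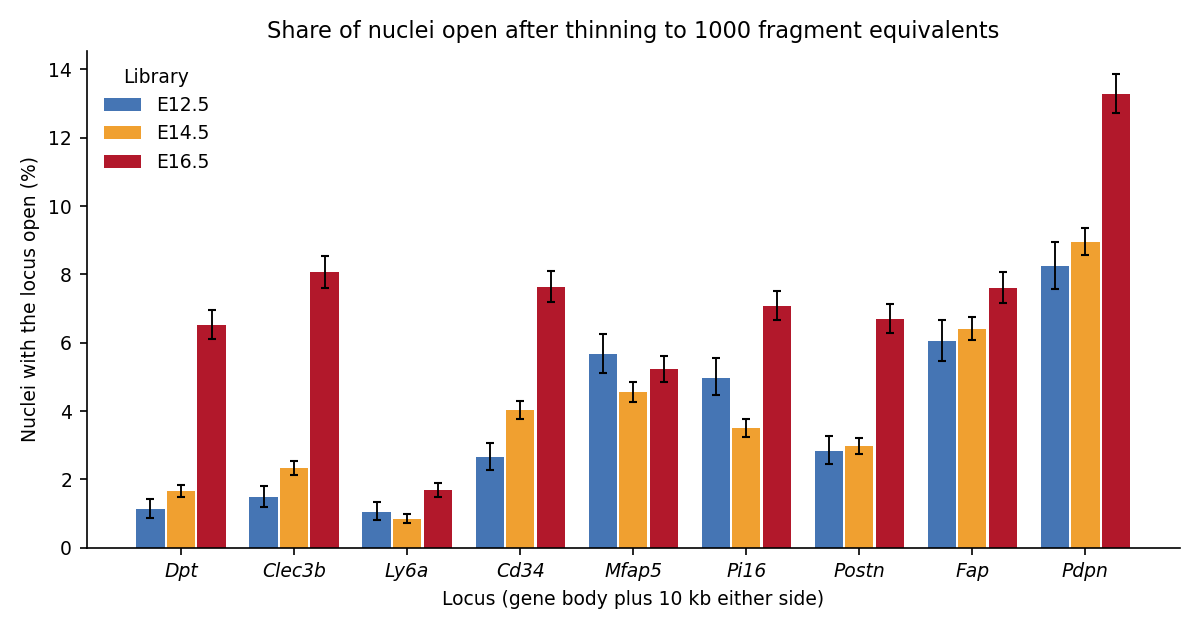
Percent of nuclei with each locus open after thinning to 1000 fragment equivalents, with 1 bar per library and 95% binomial intervals (counting error only). Bars at E16.5 are the tallest of each locus except Mfap5, where the E12.5 bar, at 5.67%, is the tallest.

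The third comparison asked whether the loci opened in the same nuclei. For each of the 36 pairs the co-opening ratio was the number of nuclei with both loci open over the number given by the product of their shares, so that a value of 1 means no relation. No 2 member loci of a pair lay within 1 Mb. At 1000 fragment equivalents the median ratio over the 36 pairs was 0.96, 1.09 and 1.11 in order of day, and over pairs of a member with every other gene 0.984, 0.988 and 0.984. At E16.5 7 of 36 pairs had a ratio of at least 1.25, against 5.14% of pairs of a member with another gene. In deeper draws fewer did, 2 pairs at 2000 fragment equivalents, against 1.75%, and 1 pair at 5000, against 0.642%. At E14.5 7 pairs did, against 7.58%, but with another random draw the median at E14.5 was 1.005. At E12.5 9 pairs did, against 18.4%, and the interval was below 1 in 3 pairs, against 1.15%, with few nuclei behind each value. With another random draw these E12.5 counts were 5 and 0.

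At E16.5 the highest ratio was that of Clec3b and Ly6a, with 36 nuclei open at both loci and 18.8 from the product of shares, a ratio of 1.92 (1.34 to 2.65). Dpt and Clec3b were both open in 110 nuclei, against 72.8 from the product, a ratio of 1.51 (1.24 to 1.82). The interval was above 1 in 5 of 36 pairs, against 1.68% of pairs with another gene, and 4 of the 5 included Dpt. The count was 2 over intervals called in all 3 libraries, against 1.48%, and 9 for the gene body plus 2 kb upstream, against 1.66%. Of all nuclei at E16.5, 2.46% had at least 3 of the 9 loci open, and the product of shares gave 2.07%.

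More nuclei per pair were reached by thinning to 5000 fragment equivalents, a depth chosen after the values at 1000 were seen, at which 2250, 8439 and 10983 nuclei were left. Leaving out shallower nuclei at this depth removed most of E12.5 (6044 nuclei) and of E14.5 (11584). The ratio at E16.5 was above 1 in 34 of 36 pairs with a median of 1.06. With every other gene the median was 0.99, so that most of those pairs were not above 1. The interval of the ratio was above 1 in 18 of 36 member pairs, against 3.71% of pairs with another gene, and below 1 in none, against 5.12%. Loci open in more nuclei have narrower intervals, and the other genes reached down to an open share of 1%. At E14.5 the interval was above 1 in 3 pairs, against 1.4%, and at E12.5 in none, against 0.818%.

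The ratios differed among the pairs at this depth. Dpt with Clec3b had the highest ratio at E16.5, 1.25 (1.19 to 1.32), with 1162 nuclei open at both and 927 from the product. Clec3b with Ly6a was at 1.20 (1.07 to 1.34), Dpt with Postn at 1.19 (1.12 to 1.26), Dpt with Cd34 at 1.18 (1.11 to 1.25) and Dpt with Mfap5 at 1.17 (1.09 to 1.25). The ratios of Fap were between 0.997 and 1.03 with 7 of the other 8 loci, and 1.11 (1.05 to 1.17) with Pi16. Over its 8 pairs the median was 1.17 for Dpt, 1.13 for Clec3b, 1.12 for Cd34, 1.07 for Postn and Mfap5, 1.06 for Ly6a and Pi16, 1.04 for Pdpn and 1.02 for Fap. At 1000 fragment equivalents the order was another one, with Ly6a (1.28) and Dpt (1.26) highest and Fap (0.991) and Pdpn (0.989) lowest, and differences between loci were not tested. At E14.5 Dpt with Cd34 was at 1.36 and Clec3b with Cd34 at 1.33, while Dpt with Clec3b was at 1.05.

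**Figure D5:**
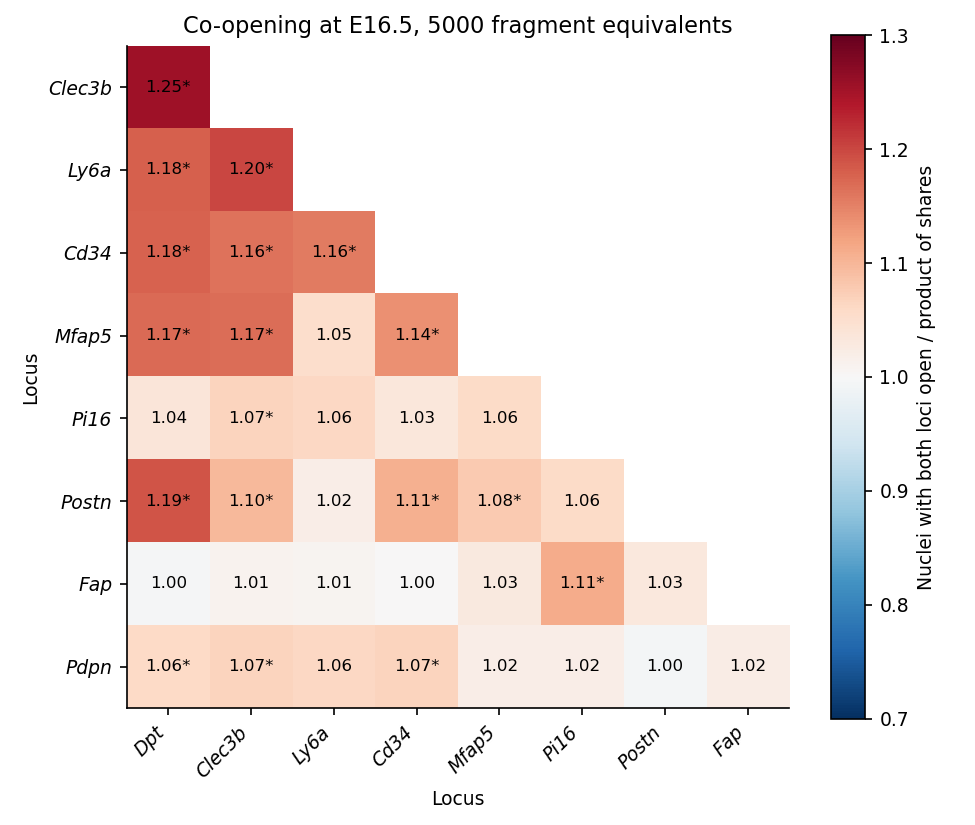
Co-opening ratio of each pair of loci at E16.5 after thinning to 5000 fragment equivalents, in 10983 nuclei, with a star where the 95% counting interval lies above 1. The pair of Dpt and Clec3b is highest at 1.25, and the row of Fap lies near 1 apart from Pi16.

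Among the leading intervals, Dpt-4 with Clec3b-2 had a ratio of 1.43 (1.24 to 1.64), Clec3b-2 with Cd34-1 1.44 (1.25 to 1.65), Dpt-4 with Cd34-1 1.27 (1.12 to 1.42) and Clec3b-2 with Mfap5-6 1.46 (1.15 to 1.84), all at E16.5 and 5000 fragment equivalents. These are some of the pairs with the interval above 1. Mfap5-6 with Postn-3 (1.34, 1.12 to 1.58) and Cd34-1 with Mfap5-6 (1.28, 1.04 to 1.55) were others. Clec3b-2 with Ly6a-3 was at 1.09 (0.66 to 1.70) and Dpt-4 with Mfap5-6 at 1.11 (0.89 to 1.37). At 1000 fragment equivalents the intervals of the first 4 pairs included 1, for example 1.54 (0.84 to 2.59) for Dpt-4 with Clec3b-2. Cd34-1, the distal interval upstream of Cd34, was open in 1.24%, 3.71% and 14.1% of nuclei at the 3 days at 5000 fragment equivalents, and Dpt-4 in 3.51%, 4.59% and 14.2%. Pi16-8, which lies in Mtch1, was at 0.47 (0.30 to 0.69) with Dpt-4, 0.55 (0.33 to 0.86) with Clec3b-2, 0.65 (0.45 to 0.91) with Cd34-1 and 0.26 (0.08 to 0.60) with Mfap5-6. Its intervals included 1 with Postn-3 (0.91, 0.70 to 1.16), Pdpn-2 (0.87, 0.69 to 1.07) and Ly6a-3 (0.30, 0.04 to 1.09). With the intronic Fap-9 it was 1.78 (1.32 to 2.35). Over all 1378 pairs of intervals from different loci the median ratio was 1.07, and over 162 pairs within a locus 1.16. At 1000 fragment equivalents 170 pairs from different loci had a median of 1.096, with the interval above 1 in 7. Of pairs from different loci with at least 10 nuclei from the product of shares, 42 at 1000 had a median of 0.994 with no interval above or below 1. At 5000, 808 such pairs had a median of 1.079, with the interval above 1 in 103 and below 1 in 20, and intervals of other genes were not paired.

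Lists of genes of other cell types were set beside the members at the same depth. Pairs of a member with 1 of 11 chondrogenic genes, such as Acan and Col2a1 of the cartilage matrix, had a median ratio of 0.92, and 1 of 99 was above 1. Acan with Cd34 was at 0.76 (0.68 to 0.84), with Dpt at 0.81 (0.72 to 0.90) and with Clec3b at 0.83 (0.75 to 0.91). Pairs with 30 other connective tissue fibroblast genes had a median of 1.02 and 196 of 269 above 1, pairs with tenogenic genes 1.013 and with endothelial genes 1.001. The median with every other gene at this depth, given above, was just below 1, so most of those pairs were not above 1. Scx, a transcription factor of tendon progenitors, was at 1.13 (1.08 to 1.19) with Fap, 1.10 (1.04 to 1.15) with Pi16 and 0.94 (0.89 to 0.99) with Dpt.

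The endothelial list is given because Cd34, Ly6a and Pdpn also mark vessels. Its summed level was 614.0, 482.6 and 637.9 CPM over 11 genes at the 3 days, and 1 of 11, Tek at 1.16 on the log2 scale, was at least 2-fold higher at E16.5 than at E12.5. Cdh5, the junction cadherin of endothelium, measured 26.5, 6.53 and 26.8 CPM. The pericyte list was at 483.7, 459.1 and 652.5 CPM over 7 genes, with 2 at least 2-fold higher, and the blood list at 589.7, 488.5 and 482.9 CPM over 8 genes, with none. Over all genes 4.07% were at least 2-fold higher. No list was at 0 in any library, and the part of such cells in the results was not tested. In bulk sums, fewer cells of a type and less open chromatin per cell cannot be told apart.

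Among the 30 other connective tissue fibroblast genes, 9 were at least 2-fold higher at E16.5 than at E12.5 and none was 2-fold lower, with a median log2 ratio of 0.33, against 4.07%, 3.26% and a median of 0.05 over all genes. The 5 highest were the fibrillar collagen genes Col3a1 (68.1, 71.9 and 225.4 CPM, log2 ratio 1.73) and Col1a2 (52.0, 51.4 and 141.7 CPM, 1.45), the matrix Gla protein gene Mgp (1.40), Dpp4 (1.39), which encodes a surface protease of the same family as Fap, and the tenascin gene Tnxb (1.18). The 3 lowest were the chemokine gene Cxcl12 (-0.25), Cd55 (-0.08), a complement regulator, and Ogn (-0.04), a small proteoglycan. None of the 30 was 2-fold higher from E12.5 to E14.5 and 8 were from E14.5 to E16.5, against 0.449% and 6.48% of all genes.

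The genes whose opening within nuclei was most like that of the 9 loci at E16.5 were ranked by the mean phi coefficient, a correlation of open against closed, over the members on other chromosomes, among 10252 genes open in at least 5% of nuclei. The 5 highest were Adam12 (0.021), Emilin2 (0.021), Abcc9 (0.020), Col6a6 (0.018) and Tmem132c (0.017), against a median of -0.0014. Abcc9 is also in the pericyte list, and Tek of the endothelial list ranked 18 (0.015). The other ranked genes of these lists lay far lower. Notch3, Pdgfrb, Cspg4 and Mcam of the pericyte list ranked 4382, 4839, 6271 and 6396. Prox1, Pecam1 and Erg of the endothelial list ranked 4573, 6375 and 10222. In counts this sparse such weak correlations are a description only.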

How the data were processed

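Single-cell ATAC-seq libraries were made from sorted tdTomato+ cells of 3 embryonic days, 1 library per day. The authors deposited, per library, a matrix of raw counts of transposase cut sites per peak and nucleus, made with Cell Ranger ATAC against mm10; version 1.1.0 is given in the submitters' processing notes, and the file headers name 1.2.0 for the E16.5 library and 1.0.1 for the earlier pair. Peaks were called separately in each library and replicates were not pooled, so that peak lists differ in number and width.

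All deposited nuclei were used, no doublet caller was run, and no cell types were assigned. Peaks of the 3 lists that shared at least 1 bp were merged into 266531 common intervals, of which 84660 were called in all 3 libraries. Peaks were assigned to genes with GENCODE vM21 basic (GRCm38), a promoter being 1000 bp upstream to 100 bp downstream of a start site. CPM was scaled to the cut sites in the 82930 autosomal intervals called in all 3 libraries. Because most counts were even, cut sites were turned into fragment equivalents (count divided by 2, rounded up), on which exact Poisson, binomial and conditional binomial intervals were computed. For co-opening, pairs lay over 1 Mb apart and other genes were open in at least 1% of nuclei. Positions are 1-based, and genome sequence is the GRCm38 assembly of RefSeq. The sequences of the leading intervals of Postn and Ly6a are not reported here. The scripts used Python 3.11.15, numpy 2.4.6, scipy 1.17.1, pandas 2.3.3 and numba 0.67.0, and the ratio, thinning and co-opening code was tested on simulated data.

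The design had 1 library per group, so no p-value was computed, and differences of 2-fold were counted beside the same count over all genes. The 9 loci and the gene lists were chosen with earlier results of these data known. All 9 loci were named in every comparison, with the 5 highest and 3 lowest of the other fibroblast genes and the 5 genes most like the members within nuclei. The pairs of leading intervals that are named, with those of Pi16-8 among them, and the pairs with Acan and Scx were singled out after their values were seen. The alternatives were other scalings, intervals, windows and thinning depths; summing only peaks that overlap a window themselves was added after the values were seen.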

Additional observations from a re-analysis of the deposited data

How the results depend on the processing

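No paired analysis was possible because each embryonic day had 1 library, and for the same reason no replicate could be left out. Each value below is set beside the reported one. The median log2 ratio of E16.5 over E12.5 over the 9 loci was 0.76 and became 0.68 scaled to all counts in autosomal peaks, 0.68 with the binarised matrix, 0.68 without the deepest 5% of nuclei, 0.54 over peaks of matched position, 0.034 per kb of called width, 1.17 for the gene body plus 2 kb upstream, 2.27 for promoter peaks only (7 loci) and, with only peaks that overlap the window themselves, 1.14. Over all genes the median was -0.25 per kb and between -0.04 and 0.07 in the other settings. Promoter peaks were taken separately in each library, so wide E16.5 peaks met only the part of earlier calls at the start site. At Postn this gave 2.68, against 1.09 over the whole interval Postn-3. From E14.5 to E16.5 it gave 1.77, against 0.91. The medians for promoter peaks are therefore not a like comparison. The count of loci at least 2-fold higher was 4, and became 3 with missing intervals at the 10th percentile (1.81% of genes) and 3 with the binarised matrix (3.64%), with Postn at 0.985 and 0.944, 5 for 2 kb upstream (with Mfap5, 4.28%) and with only peaks that overlap the window themselves (with Pi16, by the unlike cut at Pi16-9), 1 over peaks of matched position and 0 per kb.

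For E14.5 over E12.5 the median was 0.06, and became 0.23 scaled to all counts in autosomal peaks, 0.25 both over intervals called in all 3 libraries and over peaks of matched position, 0.30 with missing intervals at the 10th percentile, 0.40 per kb and 0.38 for promoter peaks. Over all genes the median was 0.05 and became, in the same order, 0.22, 0.13, 0.19, 0.26, 0.65 and 0.26. Per kb the median of the loci thus lay below that of all genes. In this step 1 locus was 2-fold higher for the gene body plus 2 kb upstream (0.569% of genes) and 1 for 50 kb either side (0.190%), against 0. For E16.5 over E14.5 the median of 1.08 became 0.82 scaled to all counts in autosomal peaks, 0.79 over intervals called in all 3 libraries, 0.58 over peaks of matched position, 0.48 with missing intervals at the 10th percentile, 0.94 for 2 kb upstream, 0.79 for 50 kb either side, 1.77 for promoter peaks and, turned in direction, -0.49 per kb, where all genes had a median of -0.91. The medians over all genes in the settings before that were -0.26, -0.15, -0.23, -0.26, -0.07, 0.07 and -0.27. In the same order, the count of 6 loci became 2, 3, 1 and 1, and was 2 for 50 kb either side (5.27% of genes) and 0 per kb. Per kb the loci Ly6a (-0.58), Cd34 (-0.18), Pi16 (-0.53) and Postn (-0.37) also turned.

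The count of loci with a higher share of nuclei at E16.5 than at E12.5 was 8 (36.8% of genes) and became 5 over intervals called in all 3 libraries (29.0%). It was between 6 and 9 in the other settings, which include no thinning, where deeper nuclei show more open loci. No share over all genes was taken for those settings, so their counts cannot be read as a result about the loci. Without thinning the co-opening median at E12.5 was 1.93 against 0.96, and all 36 pairs lay above 1 in each library. The co-opening median at E16.5 was between 1.06 and 1.19 when thinned in another way. The leading interval was the same at 6, 8 and 9 of 9 loci with missing intervals filled, median-ratio scaling and the binarised matrix; filling put Clec3b-1, Mfap5-1 and Pi16-9 in the lead. The cause of these shifts was not tested, other than that values per kb are divided by called width. Depth limits E12.5 most: a pair of loci at 1000 fragment equivalents was open in few nuclei there.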
